A study of Mus musculus with 2 samples.

Results

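The genes of antigen presentation by MHC class I were followed in 2 single-cell RNA-seq libraries of sorted mouse intestinal epithelial cells, 1 from wild type (WT) mice and 1 from MG53-TG mice. The 10 genes were H2-K1, H2-D1, B2m, Tap1, Tap2, Tapbp, Psmb8, Psmb9, Nlrc5 and H2-T3, out of 32285 in the tables. They were taken by symbol, without a cut on a measured value, but earlier results of these data were known. MG53-TG mice overexpress MG53 (gene Trim72, a membrane repair protein of muscle) throughout the body. The promoter that drives the transgene, the strain and the age of the mice are not given in the sources used here. Both groups drank 2.5% dextran sulfate sodium (DSS), which damages the epithelium of the bowel, and were sampled on day 7. Live crypt cells (7-AAD-) with EpCAM on their surface were sorted per the labels, and the study names the cells EpCAM+CD45-. The group size is given as n = 5, and how those mice were combined into 1 library each is not given in the sources used here. With 1 library per genotype there were no replicates and no test was possible, so the intervals given are 95% intervals for counting error only, and each difference is between these libraries.

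MHC class I molecules show peptides from inside the cell to CD8+ T cells. Proteasomes cut proteins into peptides, the transporter made of Tap1 and Tap2 carries them into the endoplasmic reticulum, and tapasin (Tapbp) helps load them onto a heavy chain (H2-K1 or H2-D1) held by beta-2 microglobulin (B2m). Interferons raise these genes and swap subunits of the proteasome for Psmb8 and Psmb9, which makes the immunoproteasome, and Nlrc5 is the transactivator of class I genes. H2-T3 encodes the thymus leukaemia antigen, a nonclassical class I molecule known in the small intestinal epithelium, where it binds CD8 alpha alpha on intraepithelial T cells.

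After filtering, 6963 WT and 4941 MG53-TG cells were kept, with median depths of 14035 and 17950 counts of unique molecular identifiers (UMIs). The limit of 25% mitochondrial UMIs removed 33.7% of WT and 46.1% of MG53-TG barcodes, and 8 kept barcodes occurred in both libraries. Trim72, the gene of the transgene, stood at 0.579 CPM (UMIs of a gene per 1000000 UMIs) for WT and 50.8 CPM for MG53-TG, as labelled. Cell types were named from marker lists after clustering without the 10 genes and their pathway, and 6125 WT and 4608 MG53-TG cells were epithelial, in 8 types named as "like" the cells whose markers they held and in some unnamed clusters. The sort also held T cell-like cells (545 and 222 cells), with Cd3g at 3500 and 3958 CPM, and B and plasma cell-like cells. The T cell-like cells held Ptprc, which encodes CD45, at 1207 and 1400 CPM. A further 252 and 95 cells, in non-epithelial cluster 15, had 12 of 12 T cell markers raised and stayed unnamed because none was among its 10 leading genes. They are not in the T cell-like values, and held 2025 and 1976 CPM of H2-K1. Some clusters were mixed by their markers. Of the clusters called early absorptive, cluster 2 was led by that list, cluster 11 had 8 of 13 cycling markers raised against 4 of 8 of its own, and cluster 16 had 4 of 8 colonocyte markers against 3 of 8. Enteroendocrine-like cluster 17 had 6 of 8 secretory progenitor markers against 7 of 12. Throughout, a pair of values gives WT first.

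By the GENCODE annotation of mouse build GRCm38, all 10 genes are protein coding, and the UMI counts are from their 3′ ends. The heavy chain genes are H2-K1 (ENSMUSG00000061232, chr17:33996017-34000347, minus strand) and H2-D1 (ENSMUSG00000073411, chr17:35262730-35267499, plus strand). The light chain gene is B2m (ENSMUSG00000060802, chr2:122147686-122153083, plus strand). A cluster of 4 genes holds Psmb9 (ENSMUSG00000096727, chr17:34181987-34187764, minus strand), Tap1 (ENSMUSG00000037321, chr17:34187553-34197225, plus strand), Psmb8 (ENSMUSG00000024338, chr17:34197721-34201454, plus strand) and Tap2 (ENSMUSG00000024339, chr17:34203527-34216321, plus strand). The others are Tapbp (ENSMUSG00000024308, chr17:33915899-33929292, plus strand), H2-T3 (ENSMUSG00000054128, chr17:36185572-36190287, minus strand) and Nlrc5 (ENSMUSG00000074151, chr8:94434356-94527272, plus strand).

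Promoter sequences were taken from RefSeq (GRCm38.p6), from 250 bases before to 50 bases after the listed start, and were found for 8 of the 10 genes, not for Tap2 and Nlrc5. These promoters are shown because H2-K1 and H2-D1 parted in tuft-like cells, H2-T3 followed another pattern than both, and B2m and Tap1 encode the light chain and a part of the peptide transporter. They lie at chr17:34000298-34000597, minus strand (H2-K1), chr17:35262844-35263143, plus strand (H2-D1), chr2:122147437-122147736, plus strand (B2m), chr17:34187306-34187605, plus strand (Tap1) and chr17:36190102-36190401, minus strand (H2-T3). Capitals mark matches, on either strand, to an interferon response core (GAAANNGAAA), the X2 box letters TGACGC, the Y box letters ATTGG or a kappaB core (GGGANTNNCC).
H2-K1: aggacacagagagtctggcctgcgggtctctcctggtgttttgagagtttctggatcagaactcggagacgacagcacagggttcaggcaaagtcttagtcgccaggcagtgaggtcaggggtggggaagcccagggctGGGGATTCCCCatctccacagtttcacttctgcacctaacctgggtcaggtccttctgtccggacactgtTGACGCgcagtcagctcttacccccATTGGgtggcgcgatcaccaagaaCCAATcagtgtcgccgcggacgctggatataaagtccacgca
H2-D1: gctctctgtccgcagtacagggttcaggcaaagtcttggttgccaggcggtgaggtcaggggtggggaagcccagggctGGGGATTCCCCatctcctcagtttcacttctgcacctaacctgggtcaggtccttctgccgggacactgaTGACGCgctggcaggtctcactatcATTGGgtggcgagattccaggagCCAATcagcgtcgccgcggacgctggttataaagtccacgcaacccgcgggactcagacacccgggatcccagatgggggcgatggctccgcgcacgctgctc
B2m: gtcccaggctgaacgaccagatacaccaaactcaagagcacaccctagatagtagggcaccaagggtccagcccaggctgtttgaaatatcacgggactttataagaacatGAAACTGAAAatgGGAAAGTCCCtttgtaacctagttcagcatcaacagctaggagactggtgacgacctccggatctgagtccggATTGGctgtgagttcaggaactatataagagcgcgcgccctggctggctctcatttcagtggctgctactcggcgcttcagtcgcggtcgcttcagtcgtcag
Tap1: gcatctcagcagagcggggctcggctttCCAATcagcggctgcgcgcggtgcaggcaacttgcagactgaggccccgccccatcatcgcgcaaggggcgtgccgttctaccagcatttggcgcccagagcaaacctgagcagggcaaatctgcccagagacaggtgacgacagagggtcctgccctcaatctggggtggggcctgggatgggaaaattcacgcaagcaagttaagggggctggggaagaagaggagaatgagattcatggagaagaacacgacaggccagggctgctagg
H2-T3: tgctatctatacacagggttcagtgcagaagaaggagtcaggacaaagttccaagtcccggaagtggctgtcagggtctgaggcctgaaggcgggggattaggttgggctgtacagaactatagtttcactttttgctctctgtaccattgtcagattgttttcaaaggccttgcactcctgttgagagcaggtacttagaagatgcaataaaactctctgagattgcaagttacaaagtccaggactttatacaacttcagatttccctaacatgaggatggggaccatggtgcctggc
The H2-K1 and H2-D1 promoters were 73.3% identical over 240 aligned bases without gaps and shared an unbroken run of 47 bases that holds the kappaB match, where the core matches both strands and the matches overlap. Both held the TGACGC letters ahead of an ATTGG and, on the other strand, a further one (CCAAT). The kappaB core occurred in 4.13% of all 27025 RefSeq promoters of this length, TGACGC in 7.5% and ATTGG in 37.9%. B2m held the interferon response core, found in 3.49% of all promoters, with a kappaB core after it. Tap1 held 1 match to the Y box letters and H2-T3 none of the motifs searched. The Tap1 window overlaps that of Psmb9 on the other strand, so both genes read the same letters. The further motif searched, TTCNNNGAA, was found in the Psmb8 window and in 8.47% of all promoters. Motifs were searched as the exact letters given, so a site with other letters would be missed, in these promoters as in all others. A match is a description of letters and not a bound site, and the lack of one does not show that a site is lacking.

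The classical heavy chain H2-K1 was found in every named epithelial type and was highest among these in enterocyte-like and tuft-like cells. Its level was 889 and 949.8 CPM in enterocyte-like cells, 875 and 916 CPM in tuft-like cells, 572 and 583 CPM in goblet-like cells and 451 and 509 CPM in enteroendocrine-like cells. It was 378 and 429 CPM in early absorptive cells, 348 and 355 CPM in stem-like cells, 298 and 343 CPM in cycling cells and 189.99 and 180.1 CPM in Paneth-like cells. Enterocyte-like and tuft-like cells could not be told apart by their intervals in either library, and in MG53-TG the same held for stem-like and cycling cells. T cell-like cells held 1976 and 2003 CPM, above every named epithelial type. Over these types the counting interval of H2-K1 reached from 1.404% to 6.75% of the level to either side.

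The second classical heavy chain, H2-D1, had another order, with tuft-like cells far above the other named epithelial types. It stood at 2150 and 2128 CPM in tuft-like cells against 638 and 675 CPM in enterocyte-like cells, the next lower named type. Unnamed epithelial cluster 13 held 1110 and 1376 CPM. Levels were 453 and 499.8 CPM in goblet-like cells, 403 and 400.3 CPM in early absorptive cells and 358 and 458 CPM in enteroendocrine-like cells. They were 314 and 289.6 CPM in stem-like cells, 299.9 and 313 CPM in cycling cells and 103 and 87.4 CPM in Paneth-like cells. Only stem-like and cycling cells had overlapping intervals. The tuft-like level was close to that of T cell-like cells (2067 and 2140 CPM).

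B2m, the light chain of class I molecules, was highest among named epithelial types in enterocyte-like cells, at 1033 and 1121 CPM. It was 600.4 and 622 CPM in early absorptive cells, 545 and 574 CPM in tuft-like cells and 470.2 and 451 CPM in stem-like cells. It was 433 and 414 CPM in cycling cells, 389 and 418 CPM in goblet-like cells, 254 and 259.8 CPM in enteroendocrine-like cells and 127 and 133 CPM in Paneth-like cells. The order of types was the same in both libraries except that cycling and goblet-like cells changed places, with overlapping intervals in MG53-TG. T cell-like cells had 1984 and 2099 CPM.

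Among named epithelial types, the peptide transporter genes followed B2m in having their highest level in enterocyte-like cells. It was 62.6 and 78.99 CPM for Tap1 and 35.3 and 40.1 CPM for Tap2. Unnamed epithelial cluster 13 held 68.9 and 135 CPM of Tap1. Tap1 was 42.6 and 52.1 CPM in early absorptive cells, 34.3 and 33.7 CPM in cycling cells, 30.96 and 26.9 CPM in stem-like cells and 26.2 and 33.98 CPM in tuft-like cells. It was 25.9 and 38.7 CPM in goblet-like cells, 16.5 and 15.8 CPM in enteroendocrine-like cells and 7.97 and 3.57 CPM in Paneth-like cells. The Tap1 intervals of neighbouring types from cycling down to goblet-like cells overlapped in WT. Tap2 was 19.8 and 22.98 CPM in early absorptive cells, 20.4 and 22.5 CPM in tuft-like cells, 16.95 and 20.4 CPM in goblet-like cells and 17.1 and 18.2 CPM in enteroendocrine-like cells, 4 types whose neighbours overlapped. It was 10.5 and 11.1 CPM in stem-like, 9.84 and 10.4 CPM in cycling and 4.32 and 5.04 CPM in Paneth-like cells, and in both libraries the stem-like and enteroendocrine-like intervals overlapped. T cell-like cells held 89.02 and 102 CPM of Tap1 and 90.2 and 105 CPM of Tap2.

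Tapbp, whose product tapasin bridges the transporter and the heavy chain, was highest among named epithelial types in enteroendocrine-like cells, which were low in B2m and Tap1. It stood at 150.4 and 120.2 CPM in enteroendocrine-like cells, 124 and 111 CPM in enterocyte-like cells, 110.1 and 102 CPM in tuft-like cells and 108 and 101 CPM in goblet-like cells. It was 68.9 and 62.02 CPM in early absorptive cells, 56.7 and 48.8 CPM in stem-like cells, 54.8 and 48.9 CPM in cycling cells and 23.6 and 18.7 CPM in Paneth-like cells. In MG53-TG the intervals of the first 4 types overlapped from one to the next. T cell-like cells had 193 and 242 CPM, and unnamed epithelial cluster 13 had 274 and 261 CPM.

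The immunoproteasome subunits had a different order from the molecules they feed, with the highest epithelial level in early absorptive cells, high levels in the crypt and low ones in secretory cells. Psmb8 was 339.9 and 379 CPM in early absorptive cells, 311 and 329 CPM in enterocyte-like cells, 288 and 292 CPM in stem-like cells and 295 and 266 CPM in cycling cells. It was 194 and 187 CPM in tuft-like cells, 138 and 161 CPM in goblet-like cells, 86.3 and 153 CPM in enteroendocrine-like cells and 37.8 and 26.5 CPM in Paneth-like cells. Early absorptive over goblet-like cells came to a log2 ratio of 1.30 (interval 1.24 to 1.36) in WT and 1.24 (interval 1.18 to 1.29) in MG53-TG. Psmb9 was 174 and 211 CPM in early absorptive cells, 166 and 159 CPM in cycling cells, 147 and 147 CPM in stem-like cells and 109 and 135 CPM in enterocyte-like cells. It was 76.6 and 83.3 CPM in tuft-like cells, 54.7 and 67.9 CPM in goblet-like cells, 34.1 and 35.2 CPM in enteroendocrine-like cells and 15.02 and 10.5 CPM in Paneth-like cells. In WT the Psmb9 intervals of early absorptive and cycling cells overlapped. In early absorptive cluster 2 alone Psmb8 was 358 and 386 CPM and Psmb9 178 and 209 CPM. T cell-like cells held 594 and 649.6 CPM of Psmb8 and 211 and 202 CPM of Psmb9. The early absorptive level of Psmb9 in MG53-TG lay within the interval of the T cell-like cells.

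Nlrc5, the transactivator, was highest in T cell-like cells. T cell-like cells had 85 and 35 UMIs (50.8 and 41.6 CPM), whereas all epithelial cells together had 110 and 119 UMIs (1.04 and 1.32 CPM). T cell-like over enterocyte-like cells gave a log2 ratio of 4.86 (interval 4.17 to 5.60) in WT and 4.73 (interval 3.91 to 5.58) in MG53-TG. The 8 epithelial types ran from 0.415 to 1.75 CPM in WT and from 0.4202 to 2.81 CPM in MG53-TG, and every neighbouring pair overlapped. WT barcodes of 1 to 100 UMIs, which hold free RNA, had 4.95 CPM. Free RNA is only a part of what a cell barcode holds. If every H2-T3 UMI of WT goblet-like cells came from it, free RNA would add 0.00431 UMIs of Nlrc5 to a cell, or 0.00846 with every interval at its limit. WT enterocyte-like cells held 0.0232 (interval 0.0145 to 0.0351) and cycling cells 0.0407 (interval 0.0261 to 0.0606) UMIs per cell, above that bound, and the intervals of the other epithelial types of WT reached below its upper limit.

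H2-T3 divided the epithelium into absorptive and crypt cells on one side and secretory cells on the other. It was 159 and 167 CPM in enterocyte-like cells, 98.8 and 99.3 CPM in early absorptive cells, 52.2 and 42.9 CPM in stem-like cells and 49.7 and 42.8 CPM in cycling cells. It was 13.4 and 8.797 CPM in enteroendocrine-like cells, 8.47 and 4.41 CPM in Paneth-like cells, 5.39 and 1.28 CPM in tuft-like cells and 3.55 and 1.97 CPM in goblet-like cells. Enterocyte-like over goblet-like cells came to a log2 ratio of 5.48 (interval 5.17 to 5.81) in WT and 6.41 (interval 6.05 to 6.78) in MG53-TG. With each cell thinned to 1354 UMIs, 19.1% (interval 16.6 to 21.7) and 19.9% (interval 17.2 to 22.9) of enterocyte-like cells had a UMI of the gene, against 0.518% (interval 0.237 to 0.982) and 0.256% (interval 0.0831 to 0.596) of goblet-like cells. The WT barcodes of 1 to 100 UMIs held 56.9 CPM. Goblet-like cells, with medians of 14410 and 17922 UMIs, bound what free RNA added to cells of such depth, and stem-like cells with medians of 17289 and 20562 UMIs were well above them. Per cell, goblet-like cells held 0.0495 (interval 0.0396 to 0.0612) and 0.0337 (interval 0.0261 to 0.0429) UMIs of the gene. Paneth-like cells, which were deeper, held 0.411 (interval 0.335 to 0.499) and 0.212 (interval 0.131 to 0.324). Cells of the enteroendocrine-like type held 0.0989 (interval 0.0646 to 0.145) and 0.0893 (interval 0.04997 to 0.147), and both types were above the goblet-like values in each library. Tuft-like cells, with 0.0609 (interval 0.0333 to 0.102) and 0.0179 (interval 0.005798 to 0.0417), overlapped them, and T cell-like cells (5.97 and 2.38 CPM) had 0.0183 (interval 0.008799 to 0.0337) and 0.00901 (interval 0.00109 to 0.0325).

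**Figure D1:**
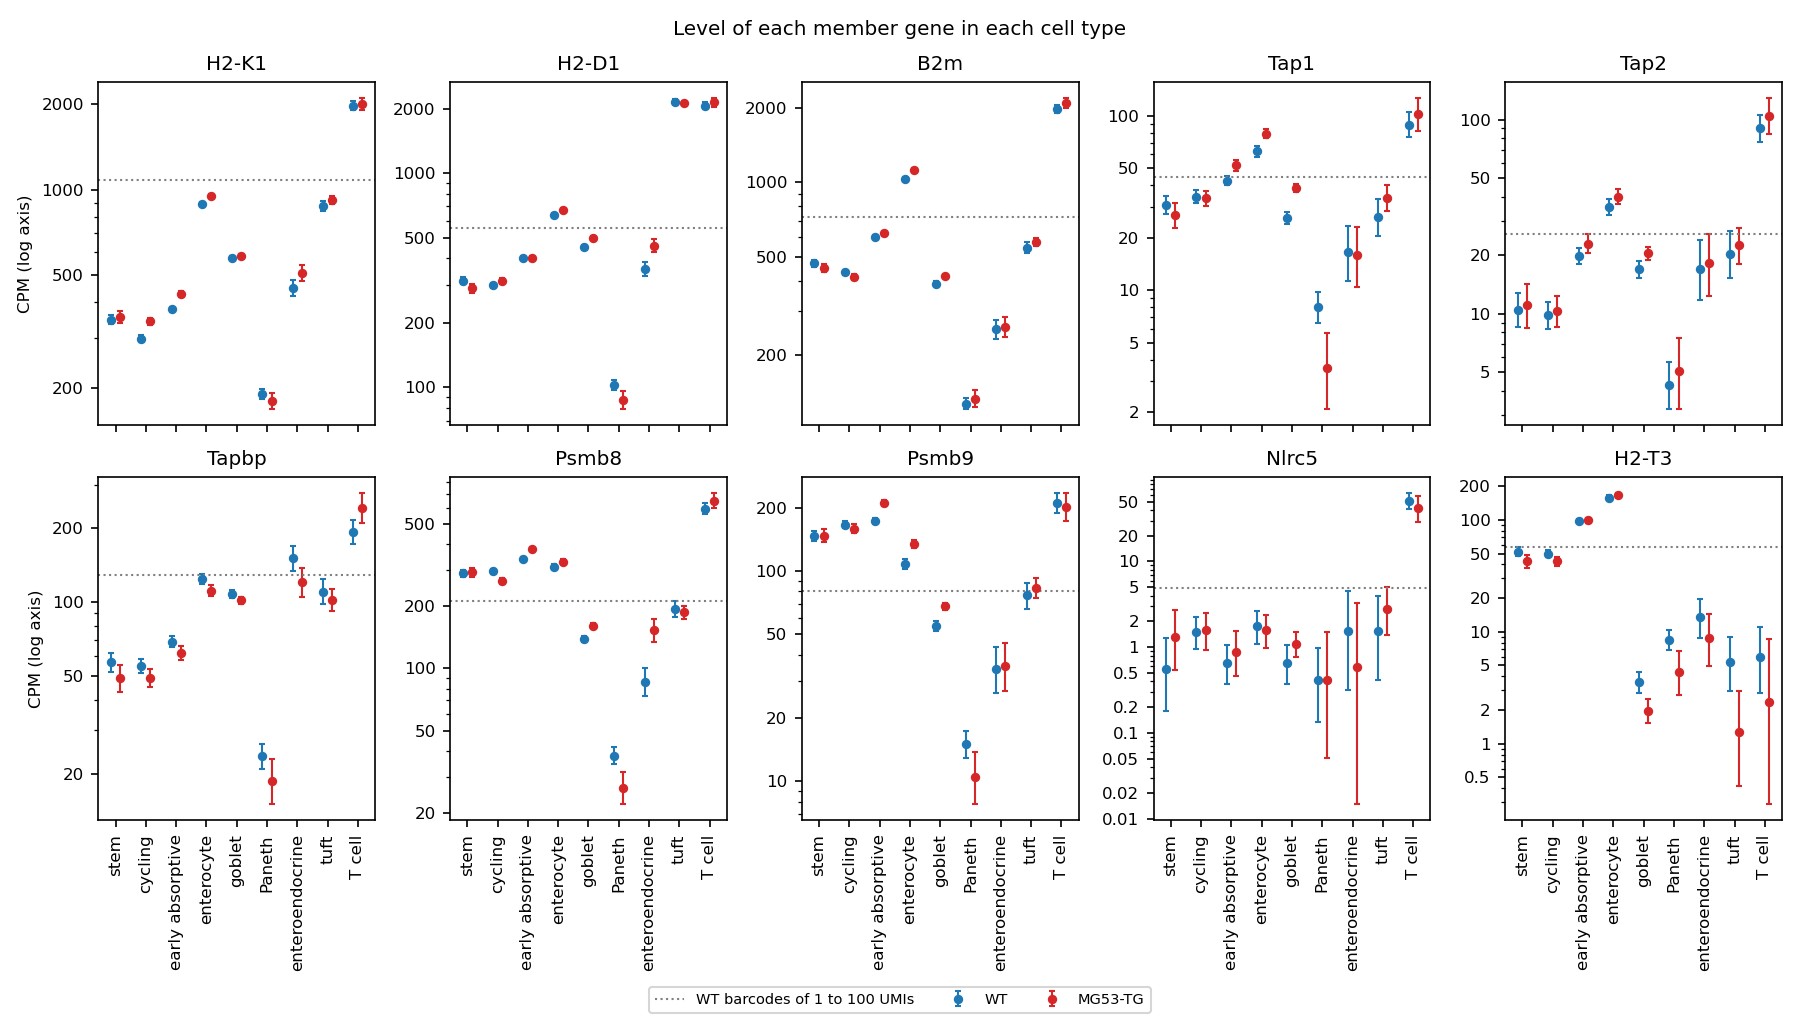
Level of each of the 10 genes (CPM, log axis) in 8 epithelial types and T cell-like cells, WT in blue and MG53-TG in red, with 95% intervals for counting error, and the level in WT barcodes of 1 to 100 UMIs as a dotted line. H2-D1 stands at 2150 and 2128 CPM in tuft-like cells, and H2-T3 falls from 159 and 167 CPM in enterocyte-like to 3.55 and 1.97 CPM in goblet-like cells.

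Paneth-like cells had the lowest CPM of every gene but H2-T3, and Nlrc5 could not be ordered. These cells were deep, with medians of 48153 and 44648 UMIs, and their UMIs per cell of H2-K1 and B2m were not the lowest. They held 9.23 and 8.66 UMIs per cell of H2-K1 and 6.16 and 6.39 UMIs per cell of B2m, against 7.99 and 9.998 UMIs per cell of H2-K1 and 5.43 and 7.18 UMIs per cell of B2m in goblet-like cells. For H2-D1 the values were 4.98 and 4.202 UMIs per cell in Paneth-like and 24.3 and 29.7 UMIs per cell in tuft-like cells. In MG53-TG the Paneth-like value of H2-D1 was the lowest of the types, with enteroendocrine-like cells next at 4.65 UMIs per cell.

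The balance of the heavy chains leaned most to H2-D1 in tuft-like cells. Tuft cells are rare chemosensory cells that answer parasites and microbes through interleukin 25. The number of H2-D1 UMIs per H2-K1 UMI in tuft-like cells was 2.46 (interval 2.34 to 2.58) in WT and 2.32 (interval 2.23 to 2.42) in MG53-TG. In the enterocyte-like cells the ratio was 0.718 (interval 0.697 to 0.739) in WT and 0.711 (interval 0.692 to 0.7302) in MG53-TG, and in goblet-like cells it was 0.791 (interval 0.772 to 0.811) in WT and 0.857 (interval 0.8399 to 0.875) in MG53-TG. In early absorptive cells it was 1.07 (interval 1.04 to 1.098) in WT and 0.934 (interval 0.8995 to 0.969) in MG53-TG, and in cycling cells 1.01 (interval 0.967 to 1.05) in WT and 0.913 (interval 0.872 to 0.956) in MG53-TG. T cell-like cells had a ratio of 1.05 (interval 0.997 to 1.097) in WT and 1.07 (interval 0.999 to 1.14) in MG53-TG. The ratio of tuft-like cells was above that of every other named type in both libraries, the next being the 41 WT and 16 MG53-TG B and plasma cell-like cells at 1.09 (interval 0.909 to 1.31) in WT and 1.38 (interval 1.07 to 1.79) in MG53-TG. The T cell markers in tuft-like cells summed to 608 and 276 CPM, of which Ptprc, a pan-leukocyte gene, made 215 and 267 CPM. Of the 12 markers, 12 and 10 had a UMI, and Cd3e stood at 4.62 and 0 CPM against 1347 and 1588 CPM in T cell-like cells.

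The pattern was carried by most tuft-like cells and not by a few. More UMIs of H2-D1 than of H2-K1 were found in 97.4% (interval 94.4 to 99.04) of 230 WT and 90% (interval 85.9 to 93.3) of 280 MG53-TG cells. In goblet-like cells this held for 29.7% (interval 27.5 to 31.9) of 1736 WT and 34.4% (interval 32.3 to 36.5) of 1956 MG53-TG cells. The 10th percentile, median and 90th percentile of H2-D1 over tuft-like cells were 772, 1810 and 4315 CPM in WT and 525, 1818 and 4544 CPM in MG53-TG. In goblet-like cells they were 137, 409 and 796 CPM and 188, 459 and 839 CPM. The 10th percentile of tuft-like cells was thus just under the 90th percentile of goblet-like cells in WT and further under it in MG53-TG. Of the pair of tuft-like clusters, the larger held 2203 and 2371 CPM of H2-D1 and the smaller one 582 and 616 CPM. The smaller one made up 4.35% and 15% of tuft-like cells, so the class had another mix of clusters in each library. Within the larger cluster 98.2% (interval 95.4 to 99.5) and 94.5% (interval 90.8 to 97.1) of cells had more H2-D1, and within the smaller 80% (interval 44.4 to 97.5) and 64.3% (interval 48.03 to 78.4). Of the 50-base stretches in the last 500 bases of the H2-D1 transcript, 9.53% also occur in transcripts of other genes, and for H2-K1 the share, all of it with H2-D1, is 0.443%. How reads with several matches were counted is not stated, so that part of the H2-D1 count is uncertain.

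**Figure D2:**
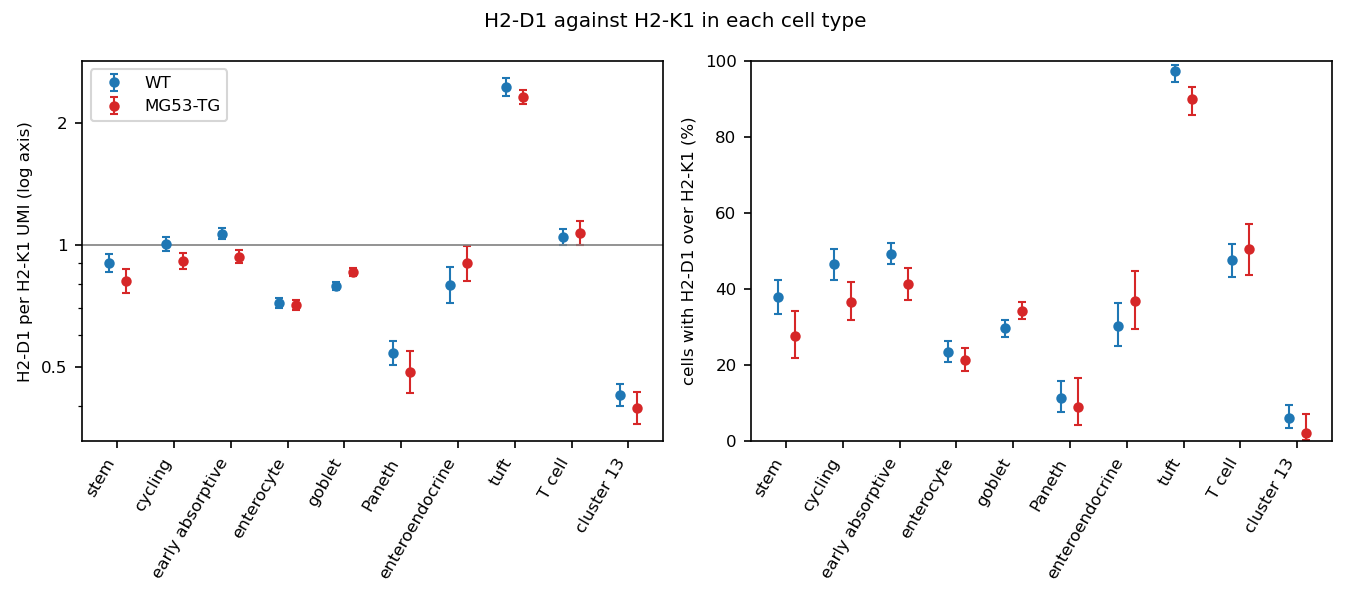
H2-D1 UMIs per H2-K1 UMI (left, log axis) and the percentage of cells with more H2-D1 than H2-K1 UMIs (right), for each cell type and for unnamed epithelial cluster 13, with WT in blue, MG53-TG in red and 95% intervals for counting error. Tuft-like cells stand at 2.46 and 2.32, and cluster 13 at 0.426 and 0.396.

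Along the absorptive lineage, the presenting molecules and the immunoproteasome parted. Cells of this lineage leave the crypt base, mature as they climb and are shed at the villus tip. From stem-like cluster 7 through early absorptive cluster 2 and enterocyte-like cluster 3 to enterocyte-like cluster 6, which was led by the villus genes Plb1, Enpp7 and Ada, H2-K1 went from 348 and 355 CPM to 370.5 and 421 CPM, 597 and 648 CPM and 1720 and 1762 CPM. B2m went from 470.2 and 451 CPM to 1502 and 1683 CPM, H2-D1 from 314 and 289.6 CPM to 920.5 and 1020 CPM and Tapbp from 56.7 and 48.8 CPM to 191 and 169.6 CPM. Each of these 4 genes was higher in every later cluster than in the one before it, in both libraries.

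Psmb9 went from 147 and 147 CPM in cluster 7 up to 178 and 209 CPM in cluster 2 and then down to 125 and 148 CPM in cluster 3 and 65.1 and 104 CPM in cluster 6. Psmb8 stood at 288 and 292 CPM, 358 and 386 CPM, 338 and 347 CPM and 243 and 287 CPM in the same clusters. H2-T3 kept the order of the presenting molecules, from 52.2 and 42.9 CPM to 178 and 199.6 CPM. Unnamed epithelial cluster 13, which was shallow and led by Saa1, Slc10a2 and Fgf15, had 2607 and 3479 CPM of H2-K1, above T cell-like cells, with 1728 and 1999 CPM of B2m and 26.5 and 31.6 CPM of Psmb9. Its cells had medians of 3362 and 4360 UMIs, and free RNA, at 1077 CPM, lay below this H2-K1 level.

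Of the 3 immunoproteasome subunits, Psmb8 and Psmb10 were higher per constitutive counterpart in the most mature cluster in both libraries, and Psmb9 in MG53-TG. The ratio of Psmb8 to Psmb5 UMIs was 1.08 (interval 1.02 to 1.14) and 1.01 (interval 0.944 to 1.09) in stem-like cluster 7 and 3.02 (interval 2.61 to 3.496) and 2.83 (interval 2.51 to 3.21) in enterocyte-like cluster 6. The ratio of Psmb10 to Psmb7 was 1.86 (interval 1.74 to 1.98) and 1.95 (interval 1.78 to 2.15) in cluster 7, and 6.71 (interval 5.499 to 8.26) and 5.95 (interval 5.02 to 7.09) in cluster 6. From cluster 7 to cluster 6 the constitutive subunits fell, Psmb5 from 267 and 288 CPM to 80.7 and 101 CPM and Psmb7 from 155 and 125 CPM to 36.4 and 44.8 CPM, while Psmb8 itself, given above, was lower in cluster 6 in WT and had overlapping intervals in MG53-TG. Psmb9 per Psmb6 was 0.453 (interval 0.424 to 0.484) and 0.483 (interval 0.443 to 0.527) in cluster 7, and 0.426 (interval 0.359 to 0.503) and 0.675 (interval 0.589 to 0.772) in cluster 6, with overlapping intervals in WT and intervals apart in MG53-TG. The lowest values of Psmb8 per Psmb5 among the epithelial types were those of tuft-like cells, at 0.616 (interval 0.5503 to 0.689) and 0.558 (interval 0.509 to 0.612), and of enteroendocrine-like cells, at 0.546 (interval 0.449 to 0.661) and 0.831 (interval 0.703 to 0.983).

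**Figure D3:**
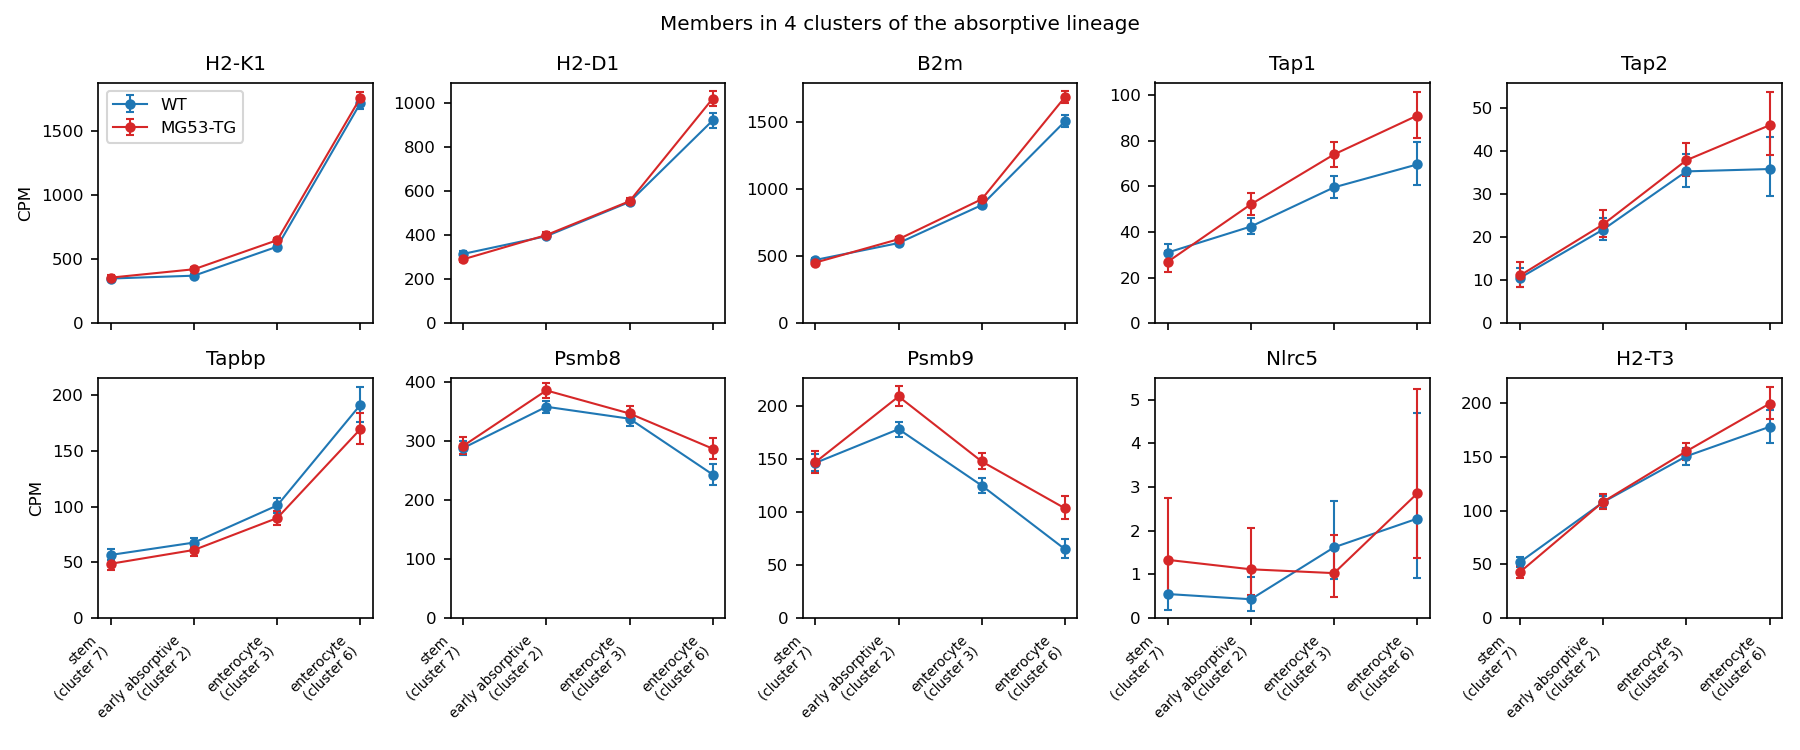
Level of the 10 genes (CPM, axes from 0) in 4 clusters of the absorptive lineage ordered by the place their markers have along the crypt and villus, WT in blue and MG53-TG in red, with 95% intervals for counting error. H2-K1 climbs to 1720 and 1762 CPM in cluster 6, while Psmb9 peaks at 178 and 209 CPM in cluster 2 and falls to 65.1 and 104 CPM.

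The next comparison was between the libraries, to see whether class I genes differed in mice that carry the MG53 transgene. Summed over all epithelial cells, the counting interval of the log2 ratio lay above 0 (higher in MG53-TG) for 6 of the 10 genes and below it for 1, and 3 intervals spanned 0. Of all genes with 30 UMIs in total, which all 10 had, 38.8% lay above 0 and 15.8% below. With a minimum of 10 CPM in 1 library as well, which Nlrc5 did not meet, the shares were 53.9% and 20.7%. H2-K1 had 490.04 and 581 CPM, log2 ratio 0.25 (interval 0.23 to 0.26). H2-D1 had 435 and 528 CPM, log2 ratio 0.28 (interval 0.26 to 0.30). Tap1 had 34.3 and 43.7 CPM, log2 ratio 0.35 (interval 0.28 to 0.41), and Tap2 17.1 and 21.3 CPM, log2 ratio 0.32 (interval 0.23 to 0.41). These differences were small. H2-T3 was the lower gene at 57.9 and 50.8 CPM, log2 ratio -0.19 (interval -0.25 to -0.13). B2m had a log2 ratio of 0.11 (interval 0.091 to 0.13) and Psmb9 of 0.047 (interval 0.0085 to 0.086), with 0.016 (interval -0.010 to 0.043) for Psmb8, 0.035 (interval -0.0100 to 0.079) for Tapbp and 0.35 (interval -0.034 to 0.74) for Nlrc5. The direction of the smallest of these depended on the scale or the cell filter, since as a mean of single-cell CPM B2m had a log2 ratio of -0.019, with median-of-ratios scaling Psmb9 had -0.045, and with cells of up to 50% mitochondrial UMIs H2-T3 had 0.047.

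None of the 9 members that met a minimum of 30 UMIs in total and 10 CPM in 1 library passed 1.5-fold in this sum, where 3.86% of 7582 genes did. Without a replicate, such a fold is a fold between 2 libraries. The median log2 ratio of those 9 members was 0.11, beside 0.10 over all genes tested, of which 68.5% were higher in MG53-TG. The mix of types also moved between the libraries. Goblet-like cells made up 24.9% of cells in WT against 39.6% in MG53-TG, and tuft-like cells 3.303% and 5.67%. With the types of MG53-TG weighted by their WT share of UMIs, a setting added after the data were seen, H2-D1 had a log2 ratio of 0.059, H2-K1 of 0.12, Tap1 of 0.28 and H2-T3 of -0.040.

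T cell markers moved with the sum as well. All 12 markers of the T cell list had a UMI in epithelial cells of both libraries, and together they made up 55.1 CPM in the WT and 26.5 CPM in the MG53-TG epithelium, against 109627 and 113512 CPM in T cell-like cells. In epithelial cells without a UMI of any of them, H2-K1 had a log2 ratio of 0.17, H2-D1 of 0.14 and Psmb9 of -0.014. The markers include Ptprc, at 6.35 and 12.1 CPM in the epithelium and 215 and 267 CPM in tuft-like cells. Tuft-like cells with a UMI of Ptprc were thus left out too. The part of their loss and of T cell RNA in these ratios was not tested. Program version, barcode filtering and library coincided with genotype and cannot be told apart from it.

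Within types, Tap1 and Psmb9 had intervals above 0 in goblet-like, enterocyte-like and early absorptive cells, and so had B2m and Psmb8. Of genes with 30 UMIs in each of these types, 2254 of 11989, 2049 of 10372 and 2255 of 11267 had such intervals. The medians over all genes tested were 0.045, 0.076 and 0.062. Tap1 had a log2 ratio of 0.58 (interval 0.44 to 0.72) in goblet-like cells, 0.34 (interval 0.20 to 0.47) in enterocyte-like cells and 0.29 (interval 0.15 to 0.43) in early absorptive cells. Psmb9 had 0.31 (interval 0.21 to 0.41), 0.31 (interval 0.21 to 0.42) and 0.28 (interval 0.21 to 0.35). B2m had 0.11 (interval 0.068 to 0.14), 0.12 (interval 0.085 to 0.15) and 0.050 (interval 0.011 to 0.089). Psmb8 had 0.22 (interval 0.15 to 0.28), 0.080 (interval 0.018 to 0.14) and 0.16 (interval 0.11 to 0.21). B2m in early absorptive cells was thus under the median of all genes, and Psmb8 in enterocyte-like cells was close to it. In stem-like cells the intervals of Tap1 and Psmb9 spanned 0, with -0.20 (interval -0.51 to 0.093) for Tap1 and 0.0067 (interval -0.12 to 0.14) for Psmb9. Over the 11 clusters that make up those 3 types, a view added after the data were seen, Tap1 was above 0 by its interval in 9 and below in 0, and Psmb9 above in 8 and below in 1, goblet-like cluster 9, at -0.33 (interval -0.66 to -0.0042). B2m was above 0 in 8 and below in 0, and Psmb8 above in 6 and below in 0. No share over all genes was taken for single clusters. Intervals above 0 in one epithelial type and below 0 in another were found for 5 of the 10 members and for 23.1% of all genes tested, and whether the ratios differ between types was not tested.

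Tapbp stood apart from its partners. It was lower in MG53-TG in 5 of the 8 epithelial types, with log2 ratios from -0.33 to -0.088 over all 8, while its interval in the epithelial sum spanned 0. Intervals below 0 were held by 1214 of 11989 genes in goblet-like, 798 of 10372 in enterocyte-like and 1002 of 11267 in early absorptive cells. Over the 11 clusters of these 3 types the ratio of Tapbp went from -0.42 to 0.12, with 0 intervals above 0 and 3 below. Of the goblet-like clusters, only cluster 9 had an interval below 0, at -0.42 (interval -0.65 to -0.19), with 0.0072 to 0.072 in the 4 other clusters. In T cell-like cells it was higher, at 0.32 (interval 0.063 to 0.58), the 1 member of 10 whose interval lay outside 0 there, as did those of 9.90% of genes tested. Enteroendocrine-like cells had the widest ratio of Psmb8, 86.3 and 153 CPM and log2 0.83 (interval 0.54 to 1.12), and a higher H2-D1 at log2 0.35 (interval 0.21 to 0.50). Tuft-like cells had no member but H2-T3 with an interval outside 0, beside 16.7% of genes tested, and H2-T3 was there at a level that free RNA could give. That class held its clusters in other shares in each library. Within its larger cluster 10, the ratio was 0.17 (interval 0.094 to 0.25) for H2-K1, 0.11 (interval 0.057 to 0.16) for H2-D1, 0.15 (interval 0.051 to 0.25) for B2m and 0.46 (interval 0.018 to 0.90) for Tap1.

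In stem-like cells H2-D1 was lower in MG53-TG, at -0.12 (interval -0.21 to -0.027), and in cycling cells Psmb8 was, at -0.15 (interval -0.22 to -0.085), whereas H2-K1 was higher in cycling cells, at 0.20 (interval 0.14 to 0.26). The smaller cycling cluster 20 made up 10.02% and 27.4% of cycling cells, and within clusters 4 and 20 Psmb8 had -0.079 (interval -0.15 to -0.0083) and 0.23 (interval -0.0063 to 0.47), and H2-K1 0.13 (interval 0.064 to 0.20) and 0.18 (interval 0.027 to 0.33). H2-T3 had ratios of 0.074 (interval -0.014 to 0.16) in enterocyte-like and 0.0068 (interval -0.091 to 0.10) in early absorptive cells. In stem-like cells it was lower in MG53-TG, at -0.28 (interval -0.52 to -0.051). In cycling cells it had -0.22 (interval -0.38 to -0.052), but -0.021 (interval -0.19 to 0.15) in cluster 4 and -0.16 (interval -1.10 to 0.83) in cluster 20. Its ratio in goblet-like cells, -0.85 (interval -1.34 to -0.37), is between levels that free RNA could give. T cell markers summed to 55.2 and 8.29 CPM in the same goblet-like cells, and their part in these ratios was not tested.

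In Paneth-like cells Tap1 (96 and 17 UMIs) had a log2 ratio of -1.16 (interval -1.995 to -0.40), Psmb8 of -0.52 (interval -0.81 to -0.23) and Psmb9 of -0.52 (interval -0.998 to -0.057). The median over all genes tested in them was -0.19, and with the members and their pathway let into the clustering the 3 ratios were 0.31, 0.26 and 0.14, so no direction is given for this type.

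Few members passed 1.5-fold in any named type. None of those that met the minimum did so in stem-like (3.0% of genes tested did), cycling (3.73%), early absorptive (2.28%), enterocyte-like (2.88%), goblet-like (1.18%), Paneth-like (18.6%), tuft-like (7.27%) or T cell-like cells (12.8%). In enteroendocrine-like cells 2 of 9 did, Psmb8 higher and H2-T3 lower with an interval that spanned 0, where 10.9% of genes passed. Unnamed epithelial cluster 13, with 11 of 12 enterocyte markers raised, is in none of these types. Tap1 there was 68.9 and 135 CPM (83 and 64 UMIs), log2 0.97 (interval 0.47 to 1.46). Intervals were above 0 also for H2-K1 (0.42), H2-D1 (0.31), B2m (0.21) and Psmb8 (0.49). Those of Tap2, Tapbp, Psmb9, Nlrc5 and H2-T3 spanned 0, and no share over all genes was taken there.

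**Figure D4:**
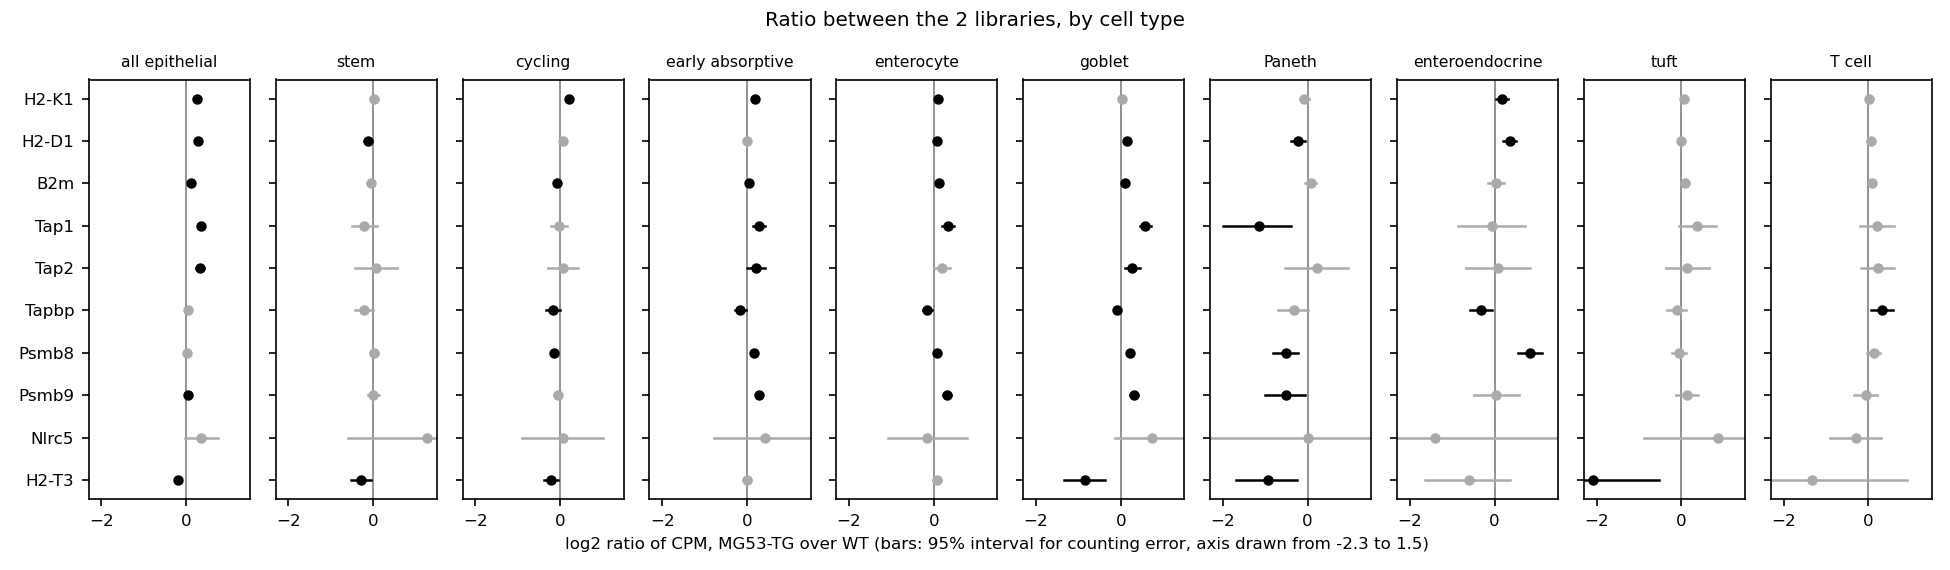
Log2 ratio of CPM, MG53-TG over WT, of the 10 genes in all epithelial cells and in each type, with black for intervals that lie outside 0 and grey for those that span it, on an axis from -2.3 to 1.5. Tap1 stands at 0.58 in goblet-like cells, and Tapbp lies left of 0 in all 8 epithelial types.

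Other genes of the pathway were taken from lists by function and are counted by interval in the sum of all epithelial cells, where, as above, 53.9% of all genes were higher by this rule and 20.7% lower, and the median over all genes was 0.10. A gene that reached 10 CPM only in MG53-TG had to be higher there. Lists with such genes, namely the nonclassical genes, the regulators, the interferon receptors and kinases and the interferon targets, are therefore counted over all their genes with at least 30 UMIs in total and no CPM minimum, a rule added after the data were seen. By it 38.8% of all genes were higher and 15.8% lower, with a median of 0.090, and many of these genes have few UMIs and wide intervals. Among nonclassical class I genes, 8 of 13 were higher in MG53-TG and 3 lower. H2-M3 (6.07 and 10.2 CPM, log2 ratio 0.75, interval 0.61 to 0.90), which met the CPM minimum through MG53-TG alone, and H2-T23 (63.3 and 95.02 CPM, log2 ratio 0.58, interval 0.54 to 0.63), which encodes Qa-1, were the named genes with intervals above 0. The others named were Fcgrt (64.8 and 50.02 CPM, log2 ratio -0.37, interval -0.43 to -0.32), the neonatal Fc receptor heavy chain, below 0 by its interval, and H2-Q1 (12.3 and 13.02 CPM, log2 ratio 0.079, interval -0.036 to 0.19), whose interval spanned 0. H2-Q1 and H2-Q2 shared the absorptive pattern of H2-T3. H2-Q1 was at 74.6 and 67.3 CPM in enterocyte-like and 0.907 and 0.656 CPM in goblet-like cells, and H2-Q2 at 435 and 415 CPM and 46.9 and 51.7 CPM. H2-M3 had the opposite order, with 3.35 and 2.92 CPM and 11.2 and 17.4 CPM, and H2-Q7 was mainly in T cell-like cells (661 and 760.2 CPM, against 2.79 and 5.16 CPM in enterocyte-like cells). H2-Q2 and H2-Q7, and the type comparison of all 4, were chosen after their values were seen, and the H2-Q genes are near-identical copies whose counts are uncertain.

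Of the loading and trimming genes, 7 of 8 were higher, led by the chaperones Hspa5 (466 and 678 CPM, log2 ratio 0.54, interval 0.52 to 0.56) and Pdia3 (465 and 611 CPM, log2 ratio 0.40, interval 0.38 to 0.41). The peptide trimming enzyme Erap1 (40 and 39.96 CPM, log2 ratio -0.0015, interval -0.066 to 0.063) and the tapasin relative Tapbpl (28.5 and 30.04 CPM, log2 ratio 0.077, interval 0.0021 to 0.15) had the lowest ratios, both under the median of all genes. Of the partners of the immunoproteasome, 3 of 4 were lower and none higher, namely Psmb10 (258 and 237 CPM, log2 ratio -0.12, interval -0.15 to -0.10), Psme2 (333 and 324 CPM, log2 ratio -0.039, interval -0.061 to -0.016) and the assembly factor Pomp (253 and 247 CPM, log2 ratio -0.033, interval -0.059 to -0.0073), with Psme1 at 369.97 and 365 CPM, log2 ratio -0.018, interval -0.039 to 0.0031. The constitutive proteasome had 11 of 18 genes lower and 3 higher, from Psmb3 (231 and 189 CPM, log2 ratio -0.28, interval -0.31 to -0.26) and Psmb7 (102 and 88.8 CPM, log2 ratio -0.19, interval -0.24 to -0.15) to Psmd2 (78.6 and 84.5 CPM, log2 ratio 0.10, interval 0.060 to 0.15) and Psme4 (42.7 and 53.01 CPM, log2 ratio 0.31, interval 0.25 to 0.37). These directions are of the sum, where the mix of types moved, and they differed within types. In cycling cells 0 partners were higher and 4 lower, and 1 constitutive gene higher and 12 lower. In enterocyte-like cells the counts were 1 and 1, and 5 and 3. Goblet-like cells had 2 and 0, and 9 and 2, beside 2254 higher and 1214 lower of 11989 genes with 30 UMIs there.

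Regulators of class I and class II genes were higher for 11 of 19 and lower for 2. Stat2 (13.9 and 23.3 CPM, log2 ratio 0.74, interval 0.64 to 0.84), which carries type I interferon signals to the nucleus, had the highest ratio of those named, and Socs3 (13.4 and 10.3 CPM, log2 ratio -0.38, interval -0.50 to -0.26) and Irf8 (88.3 and 73.6 CPM, log2 ratio -0.26, interval -0.31 to -0.22) the lowest. Of the 9 interferon receptor and kinase genes, 4 had intervals above 0 within enterocyte-like cells, beside 2049 of 10372 genes with 30 UMIs there. Within goblet-like cells 2 had, beside 2254 of 11989 genes. It was 2 in cycling cells (1 below), 1 in early absorptive cells and 0 in tuft-like cells (1 below). In the epithelial sum all 9 of these genes had intervals above 0. Those named by the rule went from Ifngr2 (62.6 and 66.2 CPM, log2 ratio 0.079, interval 0.028 to 0.13), under the median of all genes, and Ifnar1 (16.04 and 17.9 CPM, log2 ratio 0.16, interval 0.060 to 0.26) to Il10rb (36.8 and 42.6 CPM, log2 ratio 0.21, interval 0.15 to 0.28) and Jak1 (54.7 and 64.3 CPM, log2 ratio 0.23, interval 0.18 to 0.28). The class II list had 1 of 6 genes higher and 3 lower. H2-DMa (44.4 and 36.4 CPM, log2 ratio -0.29, interval -0.35 to -0.22) and Cd74 (699.7 and 597 CPM, log2 ratio -0.23, interval -0.24 to -0.21) had its lowest ratios, and H2-DMb1 (38.5 and 39.7 CPM, log2 ratio 0.044, interval -0.021 to 0.11) and H2-Ab1 (214 and 238 CPM, log2 ratio 0.15, interval 0.12 to 0.18) its highest.

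Of the type I interferon targets, 11 of 11 were higher in MG53-TG with a median log2 ratio of 0.87. Bst2 (26.9 and 36.5 CPM, log2 ratio 0.44, interval 0.36 to 0.51) and Isg15 (17.2 and 32.05 CPM, log2 ratio 0.90, interval 0.81 to 0.98) met the CPM minimum in both libraries, and Rtp4 (7.68 and 13.5 CPM, log2 ratio 0.82, interval 0.69 to 0.95) and Oas1a (7.27 and 14.8 CPM, log2 ratio 1.03, interval 0.90 to 1.16) through MG53-TG alone. Of the gamma interferon targets, 13 of 16 were higher and 0 lower, with a median of 0.64. Casp1 (94.8 and 95.3 CPM, log2 ratio 0.0076, interval -0.034 to 0.049) and Gsdmd (62.7 and 67.2 CPM, log2 ratio 0.10, interval 0.049 to 0.15) met the minimum in both libraries, and the guanosine triphosphatases Igtp (8.97 and 15.6 CPM, log2 ratio 0.80, interval 0.68 to 0.92) and Gbp7 (6.33 and 13.6 CPM, log2 ratio 1.10, interval 0.97 to 1.24) through MG53-TG alone. Within types, over genes with 30 UMIs there, the median of the type I targets was 0.94 in enterocyte-like, 0.41 in goblet-like and 0.50 in tuft-like cells. That of the members was 0.088, 0.18 and 0.071, that of the gamma targets 0.72, 0.51 and -0.11, and whether the lists differ was not tested. In cycling, early absorptive and stem-like cells the type I targets had 0.81, 0.21 and 0.23, and the gamma targets 0.47, 0.23 and 0.028. In Paneth-like and enteroendocrine-like cells the type I targets had 0.24 and -0.081, and the gamma targets 0.16 and 0.33. None of Ifng, Ifnb1, Ifnl2 and Ifnl3 had a UMI in the epithelial cells, which allows up to 0.0283 and 0.0333 CPM (3 UMIs), while Ifng had 19 and 11 UMIs in T cell-like cells. The CD8 gene Cd8a, whose product meets class I molecules, stood at 1409 and 1507 CPM in T cell-like and 1.04 and 0.244 CPM in all epithelial cells.

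Cells with UMIs of the type I interferon targets had more of the class I genes, in both libraries. For this, each cell was thinned to 1354 UMIs, cells with 2 or more UMIs of the targets were set against cells with 0, and the members were summed over all UMIs of those cells. Of goblet-like cells, 91 of WT and 127 of MG53-TG had 2 or more, against 1425 and 1501 with 0. Between them Tap1 went from 23.2 to 63.4 CPM, log2 1.45 (interval 1.07 to 1.81) in WT and from 33.8 to 86.7 CPM, log2 1.36 (interval 1.11 to 1.61) in MG53-TG. B2m went from 371 to 571 CPM, log2 0.62 (interval 0.50 to 0.74) and from 389 to 681 CPM, log2 0.81 (interval 0.72 to 0.89). H2-K1 went from 547 to 791 CPM, log2 0.53 (interval 0.43 to 0.63) and from 556 to 823 CPM, log2 0.57 (interval 0.49 to 0.64). Over the 10 members, 8 in WT and 9 in MG53-TG had intervals above 0, with medians of 0.63 and 0.79. Of all genes tested in the same split, 10.5% in WT and 13.2% in MG53-TG had intervals above 0, with medians of -0.14 and -0.068. H2-T3 in both libraries and Nlrc5 in WT were those whose intervals spanned 0 there.

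In enterocyte-like cells 9 and 10 members had intervals above 0, with medians of 0.54 (42 WT cells with 2 or more UMIs) and 0.86 (72 MG53-TG cells). Over all genes tested the shares were 9.75% and 17.2%, with medians of 0.0054 and -0.017. H2-K1 went from 840.4 to 1380 CPM, log2 0.72 (interval 0.59 to 0.84) in WT and from 823 to 1722 CPM, log2 1.07 (interval 0.99 to 1.14) in MG53-TG. H2-T3 went from 156 to 210.1 CPM, log2 0.43 (interval 0.10 to 0.75) and from 162 to 196 CPM, log2 0.27 (interval 0.044 to 0.49). Nlrc5 went from 1.48 to 9.77 CPM, log2 2.72 (interval 0.68 to 4.35) and from 1.01 to 8.67 CPM, log2 3.10 (interval 1.58 to 4.55). These Nlrc5 levels rest on 4 and 8 UMIs, with intervals of 2.66 to 25.02 and 3.74 to 17.1 CPM. In tuft-like cells of MG53-TG, H2-D1 went from 1802 to 3431 CPM, log2 0.93 (interval 0.85 to 1.01), over 42 cells, and WT had under 20 such cells. The enterocyte-like cells with 2 or more target UMIs were shallower before thinning, with medians of 5703 and 8880 UMIs against 12272 and 18874, and so were the goblet-like cells, with 10046 and 14453 against 14581 and 17990. The part of depth and of maturity in these splits was not tested. Cells of 1 library are not replicates, and these values describe the cells. Split in the same way by the gamma interferon targets, goblet-like cells had medians of 0.63 and 0.71, with 8441 and 12877 UMIs a cell against 14709 and 18212, and enterocyte-like cells of 0.17 and 0.38. Early absorptive cells had 0.16 and 0.24, and Psmb9 went the other way there, from 176 to 153 CPM, log2 -0.20 (interval -0.40 to -0.016) in WT and from 210.5 to 193 CPM, log2 -0.13 (interval -0.37 to 0.11) in MG53-TG. Over all genes tested the medians of this split were -0.27 and -0.14 in goblet-like, 0.0055 and -0.00061 in enterocyte-like and -0.042 and -0.012 in early absorptive cells.

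**Figure D5:**
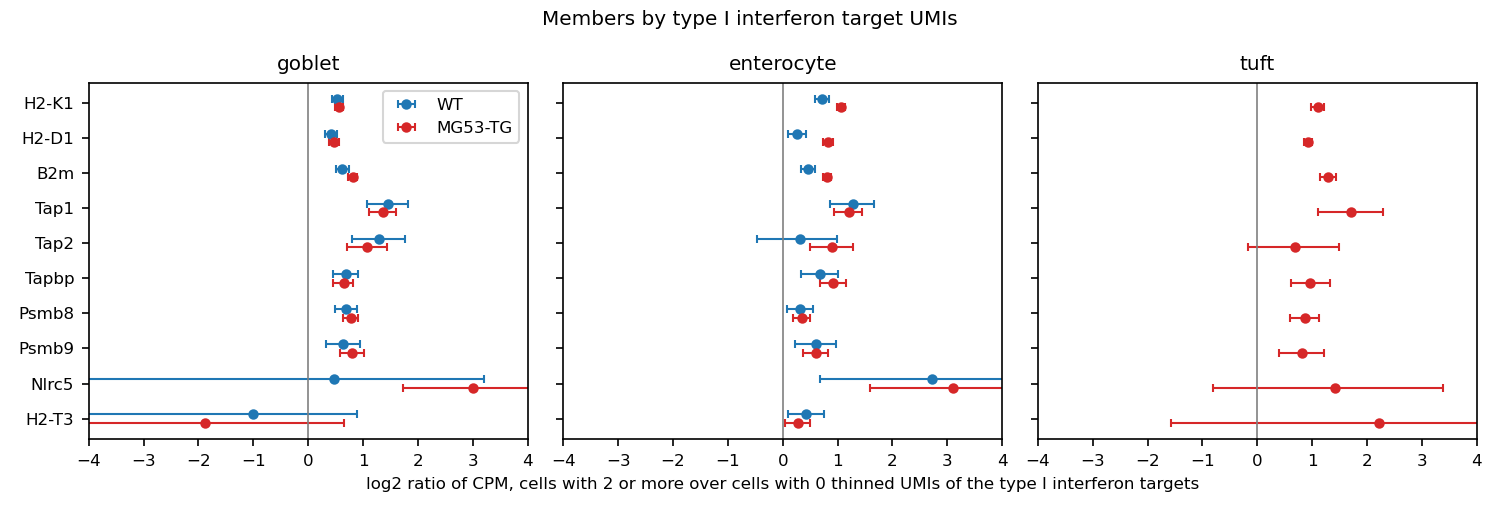
Log2 ratio of CPM of the 10 genes in cells with 2 or more over cells with 0 thinned UMIs of the type I interferon targets, in goblet-like, enterocyte-like and tuft-like cells, WT in blue and MG53-TG in red, with 95% intervals for counting error cut at the axis limits. Tap1 in goblet-like cells stands at 1.45 and 1.36, and WT tuft-like cells are not drawn because fewer than 20 had 2 or more UMIs.

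The genes most like the members were looked for over the 20 sums of type and library, by Pearson correlation with the mean of the standardised members among 12142 genes. These points share libraries and depth, and the correlations are descriptions. Among the 5 nearest genes, with their correlation, were Actb (0.95), Pkp3 (0.95), Snx20 (0.95) and Tsc22d3 (0.94). Among the 5 nearest to Nlrc5 alone were Mr1 (0.97), Gm30054 (0.97), Cxcr3 (0.97) and Rasal3 (0.97), of which Cxcr3 is a chemokine receptor of T cells. The nearest to H2-T3 were Cmbl (0.98), Slc7a8 (0.98), Pcsk5 (0.98), Slc26a3 (0.98), Vipr1 (0.97), among them Slc26a3, a chloride exchanger of intestinal absorptive cells. Over the 16 epithelial sums alone, a setting added after the data were seen, the nearest to H2-T3 were Pcsk5 (0.99), Cmbl (0.99), Rragd (0.98), Slc26a3 (0.98), Prap1 (0.98), and to the mean of the members Pdcd6 (0.98), mt-Co1 (0.98), Atp1b1 (0.98), Dtx3l (0.98), Esrra (0.98).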

How the data were processed

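Per the labels, libraries were made with 10x 3′ chemistry (v3). The authors made the deposited counts (UMIs per gene and barcode, not normalized) with Cell Ranger, in version 4 (WT) or 6.0.1 (MG53-TG) per the file headers. The submitters' notes name build mm10 and Seurat. WT held 2005718 barcodes and 158455748 UMIs, unfiltered, and MG53-TG 12361 barcodes of at least 500 UMIs and 128227881 UMIs. Use of strand and of reads with several matches, and how mice were combined into a library, are not given in the sources used here.

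Barcodes needed 1354 UMIs, 200 genes and at most 25% mitochondrial UMIs. Scrublet in scanpy 1.11.5 marked 0.0135% and 0.0388% of cells, too few to be used, so the highest doublet scores were removed at 0.8% per 1000 cells (438 WT and 212 MG53-TG cells). Both libraries were clustered together, without integration, on 1968 variable genes (30 principal components, 15 neighbours, Leiden resolution 1, leidenalg 0.10.2). The members and their pathway were left out. The 24 clusters were named by the list with the most markers among their 10 leading genes, with 3 or more of its markers raised, and left unnamed where no list had one there, so that a name need not be the list with the largest share raised. Names were rebuilt here, and a difference from the study may come from them.

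UMIs were summed per type and library. CPM have exact Poisson, shares Clopper-Pearson and ratios conditional binomial intervals (95%, counting error only), checked on simulated data. Shares of cells with a UMI used cells thinned to 1354 UMIs. With 1 library per genotype no test was made. Named are all 10 members, the 2 highest and 2 lowest ratios of each list among genes with 30 UMIs in total and 10 CPM in 1 library, and the 5 nearest genes on log2(CPM + 1). The members and lists were chosen with earlier results of these data known. Alternatives changed the scaling, the weights of types, the filters, the clustering and the naming of cells. Barcodes of MG53-TG under 500 UMIs were not analysed here, and some genes that the naming rule chose are not reported here.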

Additional observations from a re-analysis of the deposited data

Results flagged for a closer look

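Because the libraries have no replicates, no sample could be checked against others of its group. For 5 of the 10 genes the ratio of MG53-TG to WT had counting intervals on opposite sides of 0 in different epithelial types, as it had for 23.1% of all genes tested, and none of these differences between types was tested. H2-D1 stood at a log2 ratio of 0.35 in enteroendocrine-like and -0.23 in Paneth-like cells, a difference of 0.59. B2m stood at a log2 ratio of 0.12 in enterocyte-like and -0.064 in cycling cells, a difference of 0.18. Tap1 stood at a log2 ratio of 0.58 in goblet-like and -1.16 in Paneth-like cells, a difference of 1.74. Psmb8 stood at a log2 ratio of 0.83 in enteroendocrine-like and -0.52 in Paneth-like cells, a difference of 1.34. Psmb9 stood at a log2 ratio of 0.31 in goblet-like and -0.52 in Paneth-like cells, a difference of 0.83. In cycling cells B2m had -0.026 (interval -0.084 to 0.032) in cluster 4 and 0.066 (interval -0.10 to 0.23) in cluster 20, so its interval there was below 0 for the pooled clusters and not within them. In 4 of the 5 the lower type was Paneth-like, whose ratios changed sign under other clusterings.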

How the results depend on the processing

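No paired analysis was possible because each genotype has 1 library, and for the same reason no replicate could be left out. The median log2 ratio of the 10 members in all epithelial cells, 0.18, stayed above 0 and was 0.085 with median-of-ratios scaling, 0.042 as a mean of single-cell CPM, 0.088 with types weighted equally, 0.10 at the WT share of types, 0.10 in cells without T cell marker UMIs and 0.0049 in thinned cells. It moved by less than the reach of its interval to either side with doublets kept and under 4 other filters. In that sum Psmb9 turned to -0.045 with median-of-ratios scaling, -0.014 without T cell marker UMIs, -0.014 at a mitochondrial limit of 50% and -0.00325 in thinned cells. B2m turned to -0.019 as a mean of single-cell CPM and -0.017 in thinned cells, and H2-T3 to 0.047 at the 50% limit. In early absorptive cells B2m was -0.00436 with median-of-ratios scaling and -0.001095 as a mean of single-cell CPM, and in enterocyte-like cells H2-K1 was -0.073 as a mean of single-cell CPM.

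The Paneth-like median, -0.28, was 0.27 with the members let into the clustering, 0.17 at Leiden resolution 2 and 0.21 with a marker gate per cell. Under those 3 settings, in this order, H2-D1 was 0.34, 0.37, 0.40, Tap1 0.31, 0.057, 0.071, Psmb8 0.26, 0.16, 0.25 and Psmb9 0.14, 0.14, 0.18. As means of single-cell CPM, H2-D1 was 0.14 and Psmb9 0.43 there. The cause was not tested. The medians in the other types moved by less than that reach under every setting that gave a value, early absorptive cluster 2, cycling cluster 4 and tuft-like cluster 10 alone included (added after the data were seen), though in cycling cells it was 0.027 with the marker gate (-0.043 otherwise) and in T cell-like cells -0.015 with median-of-ratios scaling (0.066 otherwise), and Leiden resolution 0.5 gave no enterocyte-like cluster.

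The contrasts between types kept their direction. As log2 ratios in WT and MG53-TG, the marker gate gave 5.15 and 5.74 for H2-T3 enterocyte over goblet, 2.15 and 2.09 for H2-D1 tuft over goblet, 1.15 and 1.10 for Psmb8 early absorptive over goblet, 1.97 and 1.99 for H2-K1 enterocyte over stem and 4.09 and 3.77 for Nlrc5 T cell over enterocyte. Means of single-cell CPM gave 5.71 and 6.03 for H2-T3, 2.35 and 2.16 for H2-D1 and 1.99 and 1.81 for H2-K1. Without thinning, the shares of cells with a UMI were 73.3% and 81.96% for H2-T3 in enterocyte-like, 4.09% and 3.07% in goblet-like and 99.6% and 98.9% for H2-D1 in tuft-like cells. Of all genes in the epithelial sum, 293 passed 1.5-fold, 208 with median-of-ratios scaling, 5911 with a minimum of 1 UMI and 1205 at a lower fold, where 1 member passed. By Spearman correlation, 3 of the 5 genes nearest to the members, 0 of those nearest to Nlrc5 and 3 of those nearest to H2-T3 were the same.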
